A study of Drosophila melanogaster with 12 samples.

Results

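The peaks described here are those called with antibodies against dBigH1 and against H1 in control cells of the fruit fly Drosophila melanogaster, and they were chosen by label: every control library immunoprecipitated with either antibody, 4 of the 12 samples of the series. Chromatin immunoprecipitation and sequencing (ChIP-seq) recovers the DNA bound by a protein with an antibody, and a peak caller then marks where the recovered reads pile up. The cells were wild-type S2 cells, an established line derived from fly embryos, which per the labels carry no induction of dBigH1. Each antibody was polyclonal and was used in 2 libraries, numbered replicate 1 and replicate 2. The treatment protocol names 1 mM copper sulphate for 24 h in the same words for every sample, so whether these control cells also received copper cannot be told from the labels. The lists held 10204 peaks in all, of 19365 in the 8 lists of the series. Nothing in the labels says that the replicates came from separate cultures, so the spread between them may be technical.

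Linker histones bind the nucleosome where the DNA enters and leaves it, and they help to fold chromatin into a more compact form. H1 is the linker histone of somatic cells in the fly, encoded by many gene copies within the histone gene cluster. dBigH1 is a longer relative with an acidic N-terminal extension; it takes the place of H1 in the early embryo, before the zygotic genome becomes active, and it is also found in the germline. Whether wild-type S2 cells contain dBigH1 protein was not measured in these files, so a dBigH1 peak below means a peak called with that antibody. A peak marks local enrichment over the background, so a protein that lies evenly along a chromosome gives few peaks.

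The dBigH1 lists were short and the H1 lists long. The dBigH1 antibody gave 599 peaks in replicate 1 and 719 in replicate 2, whereas the H1 antibody gave 3814 and 5072. The log2 ratio of dBigH1 to H1 was -2.74 for peak number and -3.16 for the length covered, which was 1.28 and 1.404 Mb for dBigH1 against 10.2 and 14.1 Mb for H1. In both measures every dBigH1 library lay below every H1 library (exact two-sided permutation p = 0.333, the smallest that 2 against 2 libraries allow). With the H1 lists cut to the length of the dBigH1 list, keeping the highest scores, the log2 ratio of covered length was -1.23. Read counts are not part of the lists; the depth of sequencing is therefore unknown, and its part in these numbers was not tested.

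Each peak carries a score from the authors' peak caller, which grows with the strength of the evidence for enrichment and which served mainly to rank peaks within a list; one limit of 100 for all lists was used as an alternative setting. The bulk of the scores was alike in all lists. Median scores were 92.0 and 82.0 in the dBigH1 lists and 94.3 and 101 in the H1 lists, and a score of at least 100 was reached by 44.1% and 37.0% of dBigH1 peaks against 46.7% and 50.7% of H1 peaks. The tops differed: dBigH1 scores reached 3100, a value shared by 5 peaks in each list, and the highest H1 scores were 1014 and 1010. The score gives no order among the peaks that share 3100, and whether this value is an upper limit of the score was not tested. The score depends on depth, so it was not tested between antibodies.

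dBigH1 peaks were narrower than H1 peaks, and in the H1 lists, unlike the dBigH1 lists, higher-scoring peaks were wider. Median width was 1641 and 1559 bp for dBigH1 and 2148 and 2301 bp for H1, a log2 ratio of -0.48 with no overlap between antibodies (exact permutation p = 0.333). Each list was then divided by score into 4 bands of equal size, called top, upper middle, lower middle and bottom. In the top band, median width was 1781 and 1546 bp for dBigH1 against 3727 and 3866 bp for H1. In the bottom band the antibodies were close together, at 1482 and 1518 bp for dBigH1 and 1538 and 1586 bp for H1. The rank correlation of width with score across the peaks of a list (Spearman) was 0.099 and 0.088 for dBigH1 and 0.68 in each H1 list. Over all chromosomes, strong H1 peaks were therefore broad, and strong dBigH1 peaks were nearly as compact as weak ones. X, where dBigH1 peaks were narrower than on the other large chromosomes, held 29.3% and 27.8% of the top dBigH1 band. It held 12.1% and 8.38% of the bottom band, and the relation of width to score was not computed without X. The log2 ratio of median width was -0.89 at a score of 100 or more and -1.48 with the H1 lists cut, by score, to the length of the dBigH1 list. Peaks of 5 kb or more numbered 36 and 25 in the dBigH1 lists (6.01% and 3.48% of the peaks). In the longer H1 lists they numbered 337 and 497 (8.84% and 9.80%).

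**Figure D1:**
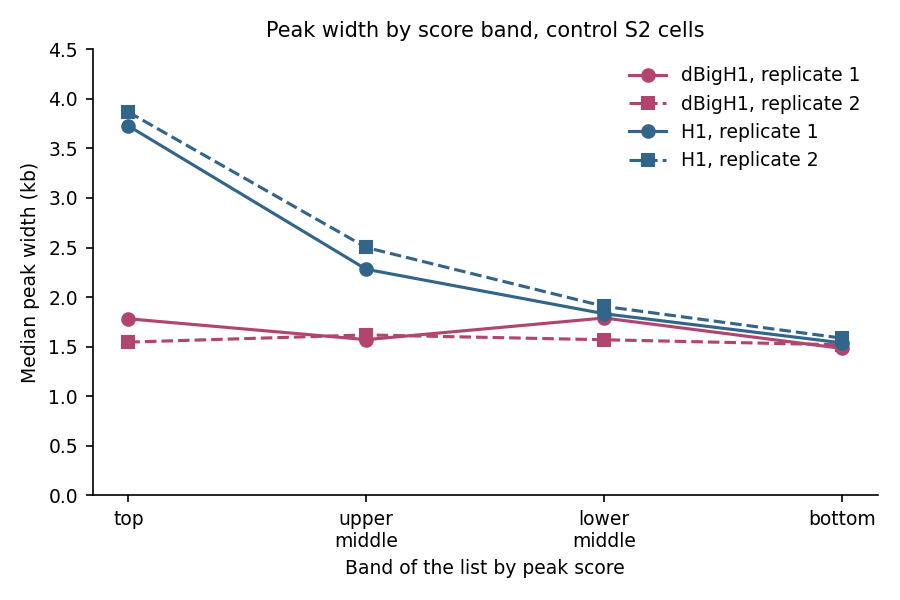
Median peak width in kb (y axis) for the score bands of each list (x axis, top band on the left), with one line per library. The dBigH1 lines stay between 1.48 and 1.79 kb, whereas the H1 lines run from 3.727 and 3.87 kb in the top band to 1.538 and 1.59 kb in the bottom band.

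Neighbouring dBigH1 peaks lay far apart, and H1 peaks came in runs. On the named chromosomes, the median gap from one peak to the next was 118 and 88.0 kb for dBigH1 and 3.82 and 2.35 kb for H1 (log2 ratio 5.09, exact permutation p = 0.333). Gaps under 1 kb made up 2.00% and 3.76% of all gaps in the dBigH1 lists and 27.1% and 34.9% in the H1 lists. Longer lists have shorter gaps, so a nearest-neighbour index was also computed: the mean distance of a peak midpoint to the nearest midpoint of its own list, divided by the value for points strewn at random at that density. The index was 0.936 and 0.907 for dBigH1, close to the value of 1 for random points, and 0.718 and 0.728 for H1, below 1 as for gathered peaks (difference 0.20, exact permutation p = 0.333). When the H1 lists were cut to the length of the dBigH1 list, keeping their highest scores, the log2 ratio of the median gap shrank to 2.02 and the difference in the index widened to 0.38.

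The antibodies divided the chromosomes differently, above all on X and 3R. X held 19.0% and 16.0% of the dBigH1 peaks and 1.52% and 1.68% of the H1 peaks, a difference of 15.9 percentage points. 3R held 18.9% and 21.3% of the dBigH1 peaks and 32.9% and 36.2% of the H1 peaks, a difference of -14.5 points. On 3L the difference was -4.15 points (-6.45 in replicate 1 and -1.86 in replicate 2). On the Het scaffolds, assembled pieces of the sequence around the centromeres, it was -1.34 points (-0.672 and -2.004). At a score of 100 or more it was -6.56 points on 3L and -3.65 on Het. In these 4 classes, and on 2L and 4, the libraries of one antibody lay apart from those of the other (exact permutation p = 0.333, adjusted p = 0.444 over 8 classes by the Benjamini-Hochberg method). Since 2 against 2 libraries cannot give a smaller p, no class passed a threshold of 0.05.

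The share of 2L depended on which peaks were kept. It was 4.96 points higher for dBigH1 in the full lists (2.30 in replicate 1 and 7.62 in replicate 2), but the difference was -4.63 points with peaks of a score of 100 or more and -6.29 points with the H1 lists cut to equal length. 2R behaved in the opposite way, with differences of -1.79 in the full lists (1.08 and -4.65), 3.6002 at a score of 100 or more and 4.41 at equal length, and its libraries overlapped in the full lists. The differences on X and 3R kept their sign in every alternative tried, from 14.3 to 25.3 points on X and from -15.9 to -6.08 points on 3R. The value of -6.08 came with equal list length, where the 3R shares of the antibodies were no longer apart (exact permutation p = 0.667). Per Mb, X carried 5.26 and 5.30 dBigH1 peaks, against 2.67 and 3.92 H1 peaks, while the large autosome arms (2L, 2R, 3L and 3R) carried 4.55 and 5.74 dBigH1 peaks against 35.7 and 47.8 H1 peaks. X was the one large chromosome on which the shorter dBigH1 lists had more peaks than the H1 lists, with 114 and 115 against 58 and 85. The small chromosome 4 held 3 and 2 dBigH1 peaks against 2 and 0 H1 peaks.

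**Figure D2:**
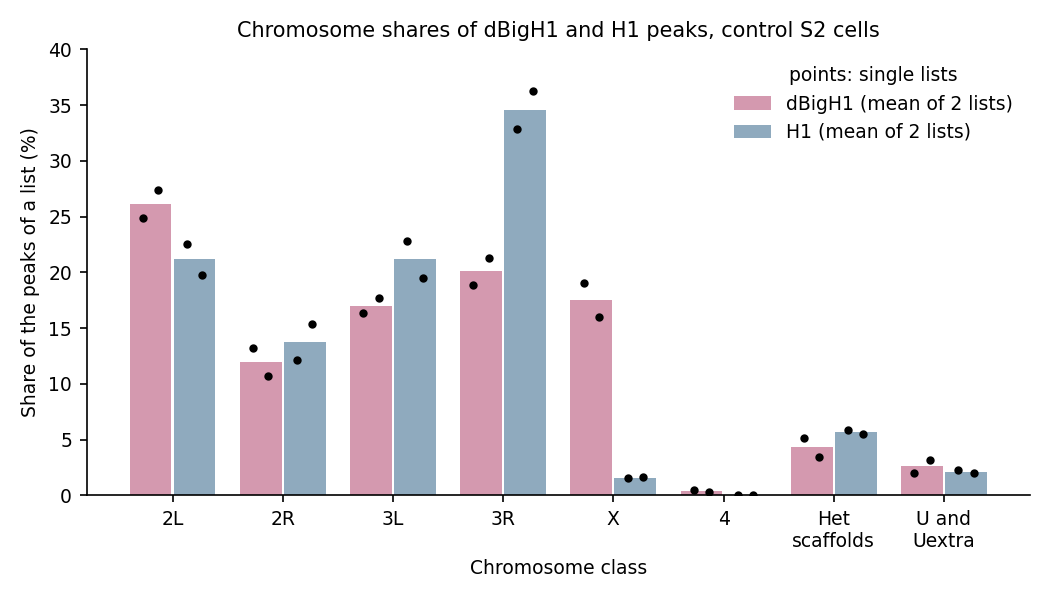
Share of the peaks of a list in percent (y axis) by chromosome class (x axis) for dBigH1 and H1, with bars for the mean of 2 lists and points for single lists. On X the dBigH1 points lie at 19.0% and 16.0% and the H1 points at 1.52% and 1.68%, whereas on 3R the H1 points lie higher.

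dBigH1 peaks on X were also narrow and high in score. Their median width was 1178 and 1169 bp, against 1819 and 1676 bp for dBigH1 peaks on the large autosome arms. Their median score was 119 in each list, against 86.9 and 78.5 on those arms. H1 peaks on X showed neither feature to the same degree. Their median width was 2336 and 2213 bp on X and 2178 and 2348 bp on the arms, and their median score was 88.6 and 84.3 on X and 93.3 and 101 on the arms. X held 29.3% and 27.8% of the dBigH1 peaks in the top score band and 12.1% and 8.38% of those in the bottom band.

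Most dBigH1 peaks lay away from H1 peaks, many of them far away, but H1 peaks cover a small part of the sequence. On the large autosome arms they covered 9.74% and 13.5% of the length and held 13.2% and 23.1% of the dBigH1 midpoints. Of the 599 dBigH1 peaks of replicate 1, 95 overlapped an H1 peak of that replicate by 1 bp or more (15.9%, 95% Clopper-Pearson interval 13.0 to 19.0). In replicate 2, 169 of 719 did (23.5%, 20.4 to 26.8). These intervals, here and below, cover counting error only and take the peaks of a library as independent. They did not overlap, and the replicate with the longer H1 list had the higher share. The mean share of 19.7% ± 5.41 (SD, n = 2) depended on the peaks kept: it was 7.69% with recurring dBigH1 peaks only, 4.71% with scores of 100 or more in both lists, and 9.01% with the H1 lists cut to equal length. The median edge-to-edge distance to the nearest H1 peak was 37.6 and 20.2 kb, 28.9 kb on average, and 48.6, 104.6 and 140 kb on average under these 3 settings. Peaks that missed H1 rarely missed it narrowly. Within 1 kb of an H1 peak, without touching it, came 2.50% and 3.06% of dBigH1 peaks, and 31.7% and 24.6% were more than 100 kb away. X, where H1 peaks are few, weighed heavily in the latter: 90 of 114 and 88 of 115 dBigH1 peaks there were that far away. On the large autosome arms 21.9% and 15.2% were. Where the peaks did overlap, the dBigH1 peak was usually wholly inside the H1 peak, in 74 of 95 and 133 of 169 cases.

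The overlap with H1 was lower the higher the dBigH1 score. On the large autosome arms, 1 of 101 dBigH1 peaks of the top band overlapped H1 in replicate 1 and 3 of 122 in replicate 2 (0.990% and 2.46%). In the upper middle band it was 8.41% and 11.03%, in the lower middle band 19.0% and 33.8%, and in the bottom band 28 of 110 and 64 of 151 (25.5% and 42.4%). The intervals of the top band (0.025 to 5.39 and 0.510 to 7.02) did not meet those of the bottom band (17.6 to 34.6 and 34.4 to 50.7). This does not measure the spread between libraries. The top minus the bottom band came to -32.2 ± 10.9 points on these arms (SD, n = 2) and to -34.0 ± 7.25 points over all chromosomes. Both replicates showed this direction, and the exact sign-flip permutation p was 0.5, the smallest that 2 pairs allow. On the arms the difference was smaller, and still negative, with recurring dBigH1 peaks only (-16.9 points), at a score of 100 or more (-10.2) and at equal list length (-12.3). The median distance to H1 on the arms, from the top to the bottom band, was 36.9, 37.2, 25.9 and 13.5 kb in replicate 1 and 38.3, 21.8, 4.03 and 3.13 kb in replicate 2. On 3R in replicate 1, however, the top band was the nearest to H1, at 18.6 kb against 26.2 kb in the bottom band.

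**Figure D3:**
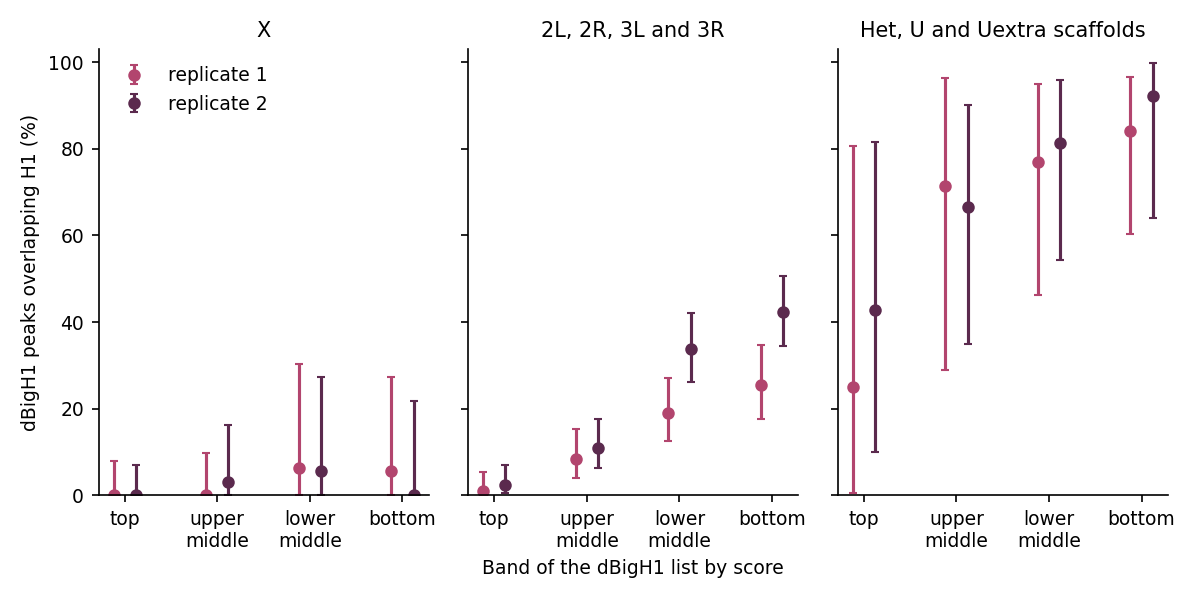
Share of dBigH1 peaks that overlap an H1 peak of the same replicate number, in percent (y axis), by score band of the dBigH1 list (x axis, top band on the left) on X, on the large autosome arms and on the scaffolds. Points are single replicates and bars are exact 95% intervals for counting error; on the arms the share is 0.990% and 2.46% in the top band and 25.5% and 42.4% in the bottom band.

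Peaks that overlapped H1 were also those that recurred least between the dBigH1 replicates. On the arms, 17 of 61 and 23 of 131 overlapping peaks met a dBigH1 peak of the other replicate (27.9% and 17.6%), against 64.6% and 56.3% of the peaks away from H1. Recurrence and score go together, so both were taken at once. In the top band, 0 of 87 and 2 of 107 recurring peaks overlapped H1, and so did 1 of 14 and 1 of 15 peaks that did not recur (0 of 87 allows a share of up to 3.45%). In the bottom band, recurring peaks overlapped H1 in 9 of 40 and 5 of 31 cases, and peaks that did not recur in 19 of 70 and 59 of 120. In both kinds of peak and both replicates the share was lower in the top than in the bottom band, although the intervals overlap for recurring peaks in replicate 2 and for the others in replicate 1. In the bottom band of replicate 2, recurring peaks overlapped H1 in 16.1% of cases (5.45 to 33.7) and the others in 49.2% (39.9 to 58.4). In replicate 1 the same shares were 22.5% (10.8 to 38.5) and 27.1% (17.2 to 39.1), whose intervals overlap.

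The overlap was lower in the higher-scoring bands on each large arm, at different levels. On 2L, where H1 peaks cover 11.9% and 13.5% of the arm, 8 of 58 and 15 of 83 dBigH1 peaks of the 2 higher bands overlapped H1, and 31 of 91 and 51 of 114 of the 2 lower bands. On 3L the counts were 2 of 46 and 2 of 55 in the higher bands and 11 of 52 and 30 of 72 in the lower. On 3R they were 0 of 59 and 1 of 69 in the higher bands and 6 of 54 and 29 of 84 in the lower. On 2R they were 0 of 45 and 0 of 51 in the higher bands and 3 of 34 and 3 of 26 in the lower; a count of 0 allows up to 6.67% and 5.88% there, and up to 5.08% of the 59 peaks on 3R. The intervals of the higher and lower bands overlapped on all 4 arms in replicate 1, and on 2R but not on the other arms in replicate 2. 2L thus held the highest overlap of the 4 arms in both replicates, at 26.2% and 33.5%, and 2R the lowest, at 3.797% and 3.90%. Across peaks, the rank correlation of score with distance to H1 was 0.37 and 0.39 on 2L, 0.24 and 0.39 on 3L, 0.13 and 0.12 on 2R, and -0.10 and 0.31 on 3R. These coefficients share the H1 list of their replicate among all peaks and are given as a description.

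The share of each arm covered by H1 peaks gives a yardstick for these overlaps. Over the 4 arms, H1 peaks covered 9.74% and 13.5% of the length and held 13.2% and 23.1% of the dBigH1 midpoints, a ratio of 1.36 and 1.71. The ratio was 0.102 and 0.121 in the top score band and 2.43 and 3.14 in the bottom band, so the strongest dBigH1 peaks lay in H1 peaks less often, and the weakest more often, than the covered length. The ratio over all peaks depends on which peaks are kept. With recurring dBigH1 peaks only, its mean log2 value was -0.70, and with a score of 100 or more in both lists -0.90, against 0.61 for the full lists. By arm the ratio was 2.09 and 2.48 on 2L, 1.25 and 1.93 on 3L, 0.513 and 1.07 on 3R, and 0.450 and 0.410 on 2R. 2R thus stood below the covered length in both replicates, although this rests on 2 and 3 midpoints inside H1 peaks.

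H1 coverage around dBigH1 midpoints showed 2 opposite shapes. Around midpoints of the top band on the arms, 0.990% and 1.64% of positions at the midpoint lay inside an H1 peak. At 5 kb to each side the share was 3.96% and 4.51%, at 20 kb 7.43% and 10.7%, and at 50 kb 8.91% and 12.7%. The share at the midpoint was thus lower than that at 50 kb (difference -9.49 ± 2.22 points, SD, n = 2), and at 100 kb it came to 10.4% and 12.7%, near the covered share of the arms. Around midpoints of the bottom band the order was turned round, with 23.6% and 42.4% at the midpoint, 16.4% and 26.5% at 5 kb, and 17.0% and 24.8% at 50 kb. In both replicates H1 coverage was thus lower at the midpoints of the strongest dBigH1 peaks than 5 kb or more away, and higher at those of the weakest. Between the midpoint and 5 kb, however, the intervals overlapped in the top band of both replicates and in the bottom band of replicate 1. Between the midpoint and 50 kb they overlapped in replicate 1 but not in replicate 2, in either band. Most midpoints of the bottom band also lay outside H1 peaks.

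**Figure D4:**
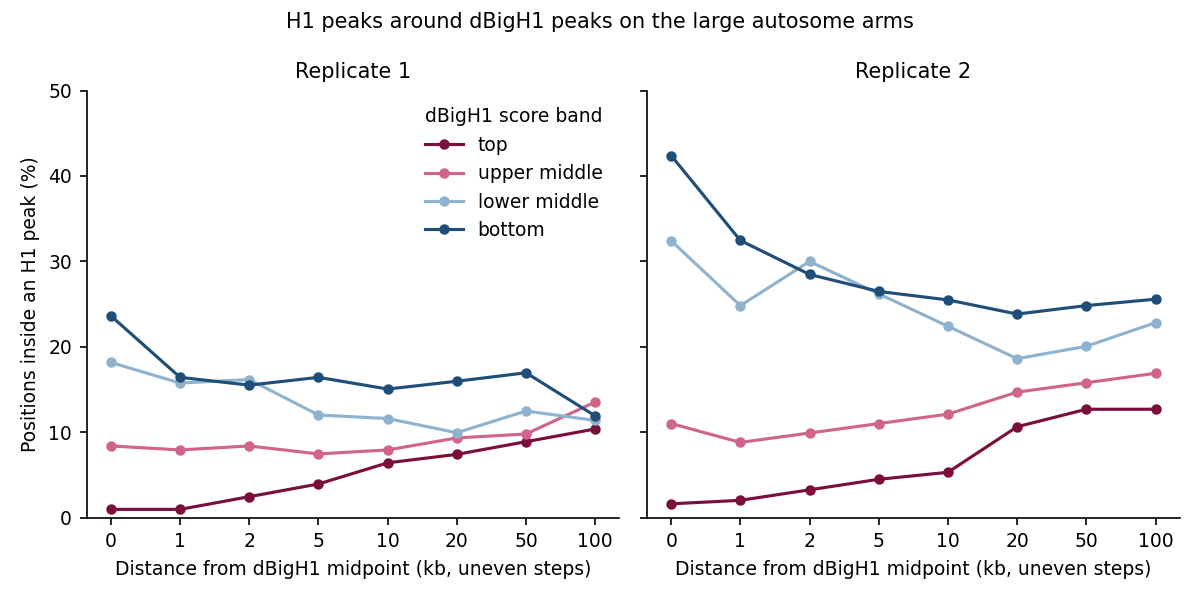
Share of positions inside an H1 peak in percent (y axis) at set distances in kb from the dBigH1 midpoint, both sides pooled (x axis, uneven steps), on the large autosome arms, with one line per score band and one panel per replicate. The line of the top band starts at 0.990% and 1.64% and climbs with distance to 10.4% and 12.7%, whereas that of the bottom band starts at 23.6% and 42.4% and drops within a few kb.

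The spacing of H1 peaks sorted the dBigH1 peaks in the same way. The arms were divided into H1 peaks and the gaps between them, with gap lengths split at 10, 50 and 200 kb. Gaps under 10 kb, the short intervals inside runs of H1 peaks, held the fewest dBigH1 midpoints, with 1.17 and 2.81 per Mb from 7 and 22 midpoints. Gaps of 10 to 50 kb held 4.68 and 5.79 per Mb, gaps of 50 to 200 kb held 4.95 and 6.24, and gaps of 200 kb or more held 4.31 and 4.21. H1 peaks themselves held 6.17 and 9.81 per Mb, but of these midpoints only 10 of 58 and 17 of 128 belonged to the 2 higher score bands. In the gaps of 200 kb or more, 82 of 156 and 85 of 126 belonged to the higher bands (52.6% and 67.5%). The share in gaps of 50 to 200 kb was 54.2% and 52.7%, so only in replicate 2 did the longest gaps stand above these. Of all dBigH1 peaks on the arms, 208 of 439 and 258 of 554 belonged to the higher bands. For the 2 higher bands alone, H1 peaks held 1.06 and 1.30 midpoints per Mb and gaps under 10 kb held 0.336 and 1.28, against 2.27 to 3.29 in the longer gaps. The rate in the short gaps of replicate 1 rests on 2 midpoints. The classes were set after earlier results on these lists were known and are a description.

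**Figure D5:**
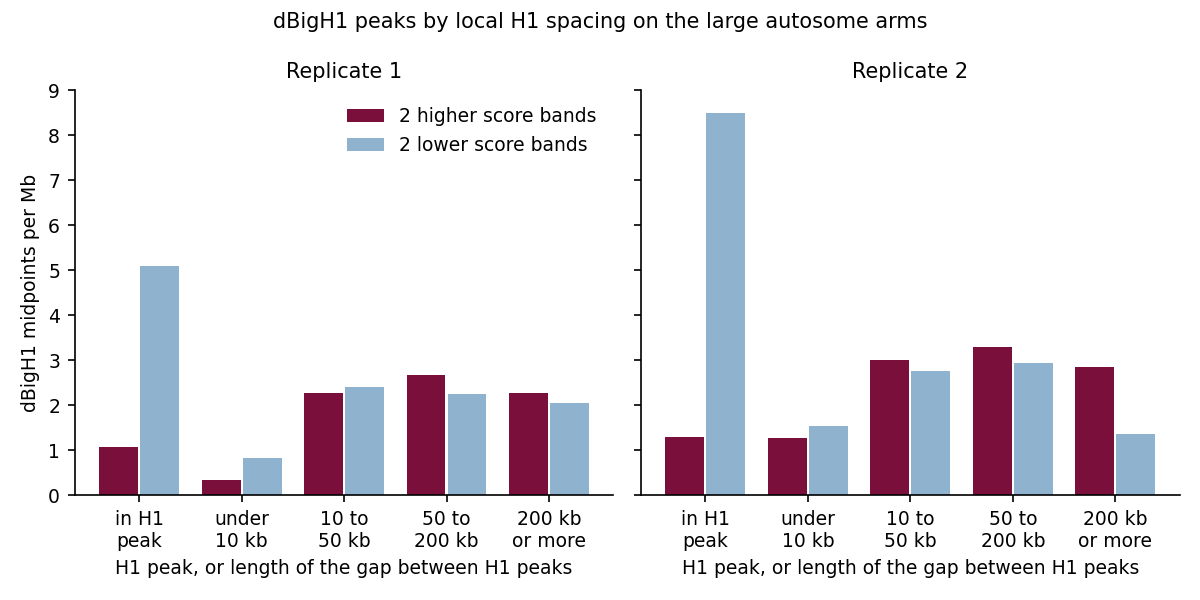
dBigH1 midpoints per Mb (y axis) inside H1 peaks and in gaps between H1 peaks of rising length (x axis) on the large autosome arms, for the 2 higher and the 2 lower score bands of each dBigH1 list. Inside H1 peaks the bars of the lower bands stand at 5.10 and 8.51 per Mb and those of the higher bands at 1.06 and 1.30, whereas in gaps of 200 kb or more the higher bands stand at 2.27 and 2.84.

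Apart from the few peaks on chromosome 4, the overlap was lowest on X and highest on the Het, U and Uextra scaffolds. 2R was close to X, at 3.80% and 3.90%, with intervals that overlap those of X. On X, 2 of 114 and 2 of 115 dBigH1 peaks overlapped H1 (1.75%, 95% interval 0.213 to 6.19, and 1.74%, 0.211 to 6.14), against 13.9% and 23.6% on the large arms, a difference of -17.0 ± 6.91 points (SD, n = 2; exact sign-flip permutation p = 0.5, the smallest possible). This difference was -6.53 points with recurring dBigH1 peaks only, -3.83 at a score of 100 or more and -8.54 at equal list length. The median distance from a dBigH1 peak to H1 was 406 and 448 kb on X and 26.2 and 15.1 kb on the arms. H1 peaks covered 0.795% and 1.04% of X, so the overlap there was 2.21 and 1.68 times the covered share by midpoints, each value resting on 2 midpoints. By this measure 2R, at 0.450 and 0.410, and 3R, at 0.513 and 1.07, stood below X in both replicates. The large arms together, at 1.36 and 1.71, stood below X in replicate 1 and close to it in replicate 2. X was thus not the lowest relative to its H1 coverage. On X the distance to H1 did not follow the dBigH1 score, with rank correlations of 0.012 and -0.14. Gaps of 200 kb or more between H1 peaks made up 95.1% and 92.2% of X and held 108 of 114 and 101 of 115 dBigH1 midpoints.

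On the Het, U and Uextra scaffolds, in contrast, 32 of 43 and 36 of 48 dBigH1 peaks overlapped H1 (74.4%, 58.8 to 86.5, and 75%, 60.4 to 86.4). These scaffolds are rich in repeats, where reads are hard to place, and the part of this in the overlap was not tested. H1 peaks covered 5.82% and 7.34% of the Het scaffolds, with lengths taken up to the last peak, and held 22 of 31 and 19 of 25 dBigH1 midpoints. That is 12.2 and 10.4 times the covered share, against 1.36 and 1.71 times on the arms. The order by score was the same as on the arms: 6 of 11 and 11 of 19 scaffold peaks of the 2 higher bands overlapped H1, and 26 of 32 and 25 of 29 of the 2 lower bands. The intervals of these shares overlap.

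Regions held by both libraries of an antibody were set against the other antibody. Merging gave 954 dBigH1 regions, and both dBigH1 libraries held 364 of them. Of these, 329 (90.4%) met no H1 peak in either replicate, 22 (6.04%, 3.83 to 9.01) overlapped an H1 peak in both, and 272 (74.7%) lay more than 10 kb from H1 in both. On 2R, 0 of 52 recurring dBigH1 regions overlapped H1 in either replicate (which allows a share of up to 5.77%), and on X 87 of 88 did not. H1 peaks covered 5.62% and 9.50% of 2R, 0.795% and 1.04% of X, and 9.74% and 13.5% of the large arms. On 2L, 13 of 79 overlapped H1 in both replicates, which is most of the 14 such regions on the large arms. Of the 50 first regions by mean rank of the score, 0 overlapped H1 in either replicate (which allows up to 6%). Of these, 44 lay more than 10 kb away in both. Of the last 50, 11 overlapped H1 in both replicates and 5 in 1 only. X held 29.3% and 27.8% of the dBigH1 peaks of the top score band, and the first 50 regions were not divided by chromosome.

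The leading dBigH1 regions can be given by position on dm3 (Release 5), the build of the files. They are not assigned to genes here, because the gene table at hand belongs to another release. The first place was shared by 3 regions on X, each with a score of 3100 in both libraries; these began at 2683524 (ending at 2687731), at 2689529 (ending at 2692769) and at 5788425 (ending at 5796300). The nearest H1 peaks were 303 and 293 kb from the first of these in replicates 1 and 2, 309 and 299 kb from the second, and 36.9 and 27.3 kb from the last. The next region, 3R 21068868 to 21071196 (scores 3100 and 2445), had an H1 peak 11.2 and 2.14 kb away, the nearest among the 10 first regions. 2R 9372718 to 9374361 (scores 1609 and 3100) lay 20.6 and 12.6 kb from H1. The other 5 began at 5589406, 13533989 and 13731504 on X, at 19599563 on 2R and at 24705376 on 3R, and were 1.46 to 2.46 kb wide. Their distances to H1 ran from 35.4 to 851 kb. None of the 10 regions touched an H1 peak in either replicate. Most of them lay on X, of which H1 peaks covered 0.795% and 1.04%.

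Of the 351 ranked dBigH1 regions on the named chromosomes, the first to overlap H1 in either replicate stood at place 83, and the first to do so in both at place 196. The region at place 196 was 2L 13485730 to 13489366, with scores of 102 and 98.9. The next began at 15868687 on 2L (scores 129 and 82.0), 16147565 on 2L (64.6 and 104.86), 21681486 on X (80.5 and 77.2), 16178660 on 2L (81.3 and 75.7) and 16059217 on 2L (104 and 64.4). All but the one on X lay on 2L, and the one on X ended at 21683265, the last peak position there. Doubly marked regions were thus modest in dBigH1 score, and 15 regions in all were of this kind on the named chromosomes.

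Seen from the H1 side, few H1 peaks met dBigH1, and those that did were strong. On the large autosome arms, dBigH1 peaks covered 1.06% and 1.17% of the length and held 1.22% and 1.93% of the H1 midpoints. Over all chromosomes and scaffolds, 96 of 3814 H1 peaks overlapped a dBigH1 peak by 1 bp or more in replicate 1 (2.52%, 2.04 to 3.07). In replicate 2, 165 of 5072 did (3.25%, 2.78 to 3.78). On the large arms alone the shares were 1.83% and 2.80%. The overlapping H1 peaks of the whole lists had a median score of 186 and 197, against 92.9 and 99.6 for the other H1 peaks. Their median width was 2992 and 3193 bp against 2138 and 2291 bp. By H1 score, 6.29% and 7.65% of the top band overlapped dBigH1 and 0.839% and 0.868% of the bottom band. Wide peaks overlap others more easily, so the H1 midpoint was also used: 4.40% and 5.05% of midpoints of the top band lay in a dBigH1 peak and 0.525% and 0.789% of those of the bottom band. The overlaps were thus mainly between weak dBigH1 peaks and strong H1 peaks.

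The 6 leading H1 regions lay on 2L and 3L, and dBigH1 met most of them in one replicate only. The first, 2L 16926504 to 16934460, had scores of 869 and 824 and was overlapped by dBigH1 in replicate 2 alone, with the nearest dBigH1 peak 217 kb away in replicate 1. Those beginning at 15830461, 18299735 and 13670068 on 2L were overlapped in replicate 1 alone, and lay 3.77, 0.415 and 25.8 kb from dBigH1 in replicate 2. The region beginning at 5459980 on 3L was overlapped in replicate 2 alone, and that at 16936285 on 2L in neither. Of the 2483 H1 regions held by both H1 libraries, 22 overlapped dBigH1 in both replicates and 164 in one, and 2297 (92.5%) in neither. For scale, dBigH1 peaks covered 1.06% and 1.17% of the length of the large autosome arms.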

How the data were processed

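Peak lists of 4 ChIP-seq libraries of control S2 cells were used, 2 per antibody; inputs and induced cells were left out. Reads were processed with Bowtie 0.12.5 and MACS 1.4.2 on build dm3, per the submitters' processing notes; settings and the role of the inputs are not given in the sources used here. Each deposited list gives chromosome, start, end, name and the authors' score per peak, never below 50. Starts were converted to count from 1. Depth is unknown. Python 3.11.15, NumPy 2.4.6, SciPy 1.17.1 and pandas 2.3.3 were used. Chromosome ends were the highest peak ends in the 4 lists. Antibodies were compared by exact two-sided permutation over libraries, and differences within lists by exact sign flips over replicates. Peaks were paired by replicate number, as the comparison requires. Overlap meant 1 bp or more. Shares carry exact 95% intervals, and a count of 0 the limit that 3 counts give. Regions were named by the mean rank of their score: the 10 first dBigH1 regions, the 6 first that overlap H1 in both replicates, the 6 first H1 regions, and the 4 first dBigH1 regions on X and on the large arms. On simulated lists the code recovered 800 of 800 distances. Members, lists and tests were chosen with earlier results of these data known. Alternatives were a score of 100 or more, named chromosomes, joining peaks closer than 1000 bp, equal list length, other overlap rules, the other H1 list, recurring peaks, each replicate left out, and a replicate block.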

Additional observations from a re-analysis of the deposited data

Results flagged for a closer look

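The same contrast, top minus bottom score band of a list, ran in opposite directions for the 2 antibodies. The share of dBigH1 peaks that overlapped H1 differed by -34.0 points on average (-28.9 and -39.1 in the replicates). The share of H1 peaks that overlapped dBigH1 differed by 6.12 points (5.45 and 6.78). Both replicates showed these directions. The 2 contrasts count the same overlaps from either side, 95 dBigH1 and 96 H1 peaks in replicate 1 and 169 and 165 in replicate 2. They are therefore not independent, and the difference between the antibodies was not tested. H1 peaks of the top band were wider than those of the bottom band (3727 and 3866 bp against 1538 and 1586 bp). With H1 midpoints, which leave that width out, the H1 difference was 4.07 points.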

How the results depend on the processing

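No test of 2 libraries against 2, or of 2 pairs, can pass 0.05, so only sizes and signs are compared. Of 155 alternative values for 22 results, 138 kept their direction or moved by less than the spread between replicates, 6 moved further and 11 changed sign. Some of the 138 could not come out otherwise. The replicate block repeats the main value, and with n = 2 leaving a replicate out moves the mean share or distance by less than its SD. At a score of 100 or more, the difference in chromosome share (dBigH1 minus H1) became -4.63 points on 2L, 3.6002 on 2R and -1.22 on U with Uextra. At equal list length it became -6.29, 4.41 and -0.125 on these classes, and joining peaks gave -0.044 on U. With each replicate left out it ranged from -4.65 to 1.08 on 2R and from -0.23 to 1.23 on U. The share of dBigH1 peaks overlapping H1, 19.7% on average, became 4.71% at a score of 100 or more, 9.01% at equal length and 7.69% with recurring peaks only. The median distance, 28.9 kb, became 104.6, 140 and 48.6 kb. The first 2 of these settings leave fewer H1 peaks to overlap. The log2 coverage ratio became -0.90 at a score of 100 or more and -0.70 with recurring peaks. The gap classes, and every alternative for them, for the coverage ratio, for coverage by distance and for the share of H1 peaks overlapping dBigH1, were added after seeing the data. Why the other values moved was not tested. The difference between score bands stayed negative, from -39.9 to -10.2 points on the arms. With the replicate block the log2 ratio of peak number was -2.74 and the X difference 15.9 points, as in the unpaired comparison by construction; replicate numbers did not deviate together (correlation -0.069 over 98 windows), and with 2 pairs this cannot show pairing. Peak number has no value at equal length, which fixes it.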

Other observations

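Counts of dBigH1 and H1 peaks were also set side by side in windows. Over 98 windows of 1 Mb on the large autosome arms, the rank correlation of dBigH1 with H1 counts was 0.13 and 0.26 in replicates 1 and 2. Between replicates it was 0.69 for dBigH1 and 0.90 for H1. Over 967 windows of 100 kb it was -0.003 and 0.047 between antibodies and 0.60 and 0.88 between the dBigH1 and the H1 replicates. In 22 windows of 1 Mb on X it was 0.54 and 0.40 between antibodies, where 12 and 13 windows held no H1 peak. Windows share the libraries and their depth, so these values are descriptions. No dBigH1-free 1 Mb window was found on X, and the arms had 2 and 1, against 10 and 9 without H1.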
